A study of Rattus norvegicus with 16 samples.

Results

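The transcriptome of the rat renal epithelial line NRK-52E was compared with that of the rat renal fibroblast line NRK-49F after both had been kept at pH 6.0. The comparison takes the 8 of 16 libraries whose labels name pH 6, which are 4 NRK-52E libraries (N3, N4, N7 and N8) and 4 NRK-49F libraries (N11, N12, N15 and N16). It runs across all genes. In the study the lines shared their medium without touching, NRK-52E on a filter insert and NRK-49F in the well below, and after 24 h without serum the medium was set to pH 7.4 or 6.0 for 48 h. The labels write these pH values as 7 and 6. The 8 libraries at pH 7.4, 4 of each line, serve only to ask whether a difference between the lines was the same without acidosis, and they share no library with the pH 6.0 comparison. RNA sequencing of poly(A) RNA gave totals of 16844811 to 23856187 counts in the NRK-52E libraries at pH 6.0 and of 16201084 to 34784862 counts in the NRK-49F libraries at pH 6.0. The labels do not say whether the 4 libraries of a group came from separate cultures, so every p-value here measures the spread between libraries. Levels are FPM, counts scaled to a common library size by TMM with no correction for gene length, so they compare libraries and not genes. Values are listed in the order N3, N4, N7 and N8 for NRK-52E and N11, N12, N15 and N16 for NRK-49F. Log2 fold changes are NRK-52E over NRK-49F, so a negative value is higher in NRK-49F.

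NRK-52E and NRK-49F are long established lines from normal rat kidney, and each is 1 line, so what separates them is not a sample of epithelial cells against a sample of fibroblasts. In the study NRK-52E grew only on filter inserts and NRK-49F only in wells. A difference between the lines therefore cannot be told apart from one of support or compartment. Tubule epithelial cells are known for tight and adherens junctions, for resting on a basement membrane of laminin and type IV collagen, and for transport of solutes and acid. Interstitial fibroblasts are known for fibrillar collagens, fibronectin and the metalloproteases that turn this matrix over, and both cell types exchange secreted factors.

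The epithelial label was only partly borne out by junction genes. Of 38 epithelial junction and regulator genes, 19 passed the filter on low counts, and 13 of these were differentially expressed genes (DEGs, FDR below 0.01 in both edgeR and DESeq2) higher in NRK-52E, 3 were DEGs higher in NRK-49F and 3 were not called. Over all 13796 genes tested, 28.6% were DEGs higher in NRK-52E and 31.3% were DEGs higher in NRK-49F. The median log2 fold change of the tested junction genes was 2.09, against -0.03 over all genes tested. Cgn, which encodes the tight junction protein cingulin, measured 101, 109, 107 and 73.9 FPM in the NRK-52E libraries and 0.133, 0.663, 0.682 and 0.657 FPM in the NRK-49F libraries. Every NRK-52E library lay above every NRK-49F library for Cgn, with N8 the lowest of its line, and the log2 fold change was 7.47 ± 0.29 (SE, n = 4 libraries per line, FDR 5.7e-10). Krt7, a keratin of simple epithelia, measured 13.03, 9.39, 15.2 and 24.4 FPM in the NRK-52E libraries and 0.177, 0, 0.1300 and 0 FPM in the NRK-49F libraries. For Krt7 the groups did not overlap either and the log2 fold change was 7.50 ± 0.56 (FDR 1.7e-07). Ocln, for the tight junction protein occludin, measured 8.14 to 10.4 FPM in NRK-52E and 0 to 0.332 FPM in NRK-49F, a log2 fold change of 6.95 ± 0.58 (FDR 4.0e-07), and the groups did not overlap. The junction scaffold gene Tjp3 (5.61), the cornified envelope gene Evpl (6.14), the tricellular junction gene Lsr (4.51) and the plakoglobin gene Jup (1.51) were also higher in NRK-52E on the log2 scale. Cdh1, for E-cadherin, a marker of most epithelia, was very low in both lines and held 0.315 FPM in the mean of NRK-52E and 0.230 FPM in NRK-49F, too few counts to be tested. Epcam had 1 count over the NRK-52E libraries and 0 over the NRK-49F libraries, and Cldn1, Esrp1, Marveld3 and Ap1m2 had 0 counts in both lines. Some genes of the list ran the other way. Dsp, for desmoplakin, measured 0, 0.0450, 0.0820 and 0.376 FPM in the NRK-52E libraries and 65.3, 62.3, 65.0 and 71.6 FPM in the NRK-49F libraries. All NRK-49F libraries lay near each other and far above NRK-52E, where N3 had no count, and the log2 fold change of Dsp was -8.94 ± 0.36 (FDR 7.6e-10). The envelope gene Ppl (-2.01 ± 0.11) and the membrane protease gene St14 (-4.05 ± 0.56) were higher in NRK-49F as well, while Krt8, shared by both lines, differed by a log2 fold change of 0.60 ± 0.10 with mean levels of 316 ± 27.4 and 206 ± 9.43 FPM (SD). Summed over the whole list, epithelial genes reached 1603, 1497, 1505 and 1461 FPM in the NRK-52E libraries and 712, 722, 729.6 and 744 FPM in the NRK-49F libraries, with 8 to 14 and 10 to 16 members at 0 counts per library. The single gene with most FPM was Jup or Spint2 in NRK-52E and Krt8 in NRK-49F.

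The fibroblast label fitted the mesenchymal list in most members. Of 39 fibroblast and mesenchymal genes, 33 were tested, of which 23 were DEGs higher in NRK-49F, 6 DEGs higher in NRK-52E and 4 not called, with a median log2 fold change of -3.40. Col1a1, a chain of the fibrillar collagen type I, measured 16.6, 18.3, 20.4 and 16.9 FPM in the NRK-52E libraries and 8995, 8377, 8818 and 6961 FPM in the NRK-49F libraries. Fn1, for fibronectin, measured 19.6, 29.2, 14.9 and 16.3 FPM in the NRK-52E libraries and 7482, 7074, 6210.5 and 8406 FPM in the NRK-49F libraries. Pdgfra, the PDGF receptor alpha of mesenchymal cells, measured 0.183, 0, 0.0410 and 0 FPM in the NRK-52E libraries and 222, 267, 418 and 564 FPM in the NRK-49F libraries. In all 3 genes the NRK-49F libraries stood apart from NRK-52E by orders of magnitude, and log2 fold changes were -8.86 ± 0.19 for Col1a1, -8.53 ± 0.28 for Fn1 and -12.77 ± 0.53 for Pdgfra. Pdgfra also spread within NRK-49F, where N16 held the highest value and N11 the lowest. Prrx1, a homeobox gene of limb and connective tissue mesenchyme, had no count in any NRK-52E library and 67.4, 74.8, 84.6 and 102 FPM in NRK-49F, which puts it at least 2380.2-fold higher in NRK-49F against a floor of 3 counts over the group. Cdh11, a cadherin of mesenchymal cells, held 2 counts over the NRK-52E libraries and was higher in NRK-49F by a ratio of 1675 (95% counting interval 464 to 13835). Among the transcription factors of mesenchymal change, Twist1 (-5.53), Twist2 (-4.38), Zeb2 (-6.94), Snai1 (-1.46) and Snai2 (-2.36) were DEGs higher in NRK-49F on the log2 scale, whereas Zeb1 (0.77, FDR 0.037) was not called. Vim, for the intermediate filament vimentin, was present in both, at 246 to 393 FPM in NRK-52E and 2437 to 2713 FPM in NRK-49F (-2.98 ± 0.16). Several genes of this list belonged to NRK-52E instead. Col3a1, a chain of collagen type III, measured 3166, 2969.6, 2582 and 1804 FPM in the NRK-52E libraries and 31.6, 36.3, 59.6 and 87.9 FPM in the NRK-49F libraries. Mfap5, of elastic microfibrils, measured 194, 179, 189 and 465 FPM in the NRK-52E libraries and 0.708, 0.332, 0.780 and 0.438 FPM in the NRK-49F libraries. Both were far higher in every NRK-52E library, by log2 fold changes of 5.59 ± 0.35 and 8.76 ± 0.43, although N8 had the lowest Col3a1 and by far the highest Mfap5 of its line. The matrix protein gene Sparc (1.58 ± 0.21), the collagen crosslinking gene Lox (1.03 ± 0.22), Col5a2 (1.08 ± 0.11) and Col14a1 made up the rest. Thy1 and Meox1 had 0 counts in every library at pH 6.0, and Fap had 1 count in all. The list summed to 10257, 9916, 9318 and 9255 FPM in the NRK-52E libraries, with Sparc the gene of most FPM, and to 30295, 28701, 28441 and 29250.0 FPM in the NRK-49F libraries, where Col1a1 or Fn1 was the gene with most FPM.

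Smooth muscle and myofibroblast genes were an NRK-52E feature. Of 11 tested among 16, 8 were DEGs higher in NRK-52E and 1 was higher in NRK-49F, with a median log2 fold change of 3.39. Acta2, for smooth muscle actin, measured 61.0, 150.1, 67.1 and 148 FPM in the NRK-52E libraries and 0.664, 0.464, 0.390 and 0.313 FPM in the NRK-49F libraries. N4 and N8 had more than N3 and N7, yet all stood far above NRK-49F, and the log2 fold change was 7.88 ± 0.42 (FDR 7.6e-09). Tagln, an actin-binding protein of smooth muscle, measured 86.1, 100.11, 70.9 and 135 FPM in the NRK-52E libraries and 1.24, 1.59, 1.43 and 0.907 FPM in the NRK-49F libraries, again without overlap (6.26 ± 0.26). Myl9, a myosin light chain, had no count in NRK-49F and was at least 139-fold higher in NRK-52E. Tpm1 (3.57), Des (3.39) and Smtn (2.23) followed, and the exception, Tpm2 (-0.51 ± 0.14), lost its call under library totals, under DESeq2's size factors and when N3, N4, N7, N11, N12 or N15 was left out. The list summed to 1907, 2116, 1884 and 2514 FPM in the NRK-52E libraries and 577, 589.5, 533 and 508 FPM in the NRK-49F libraries.

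**Figure D1:**
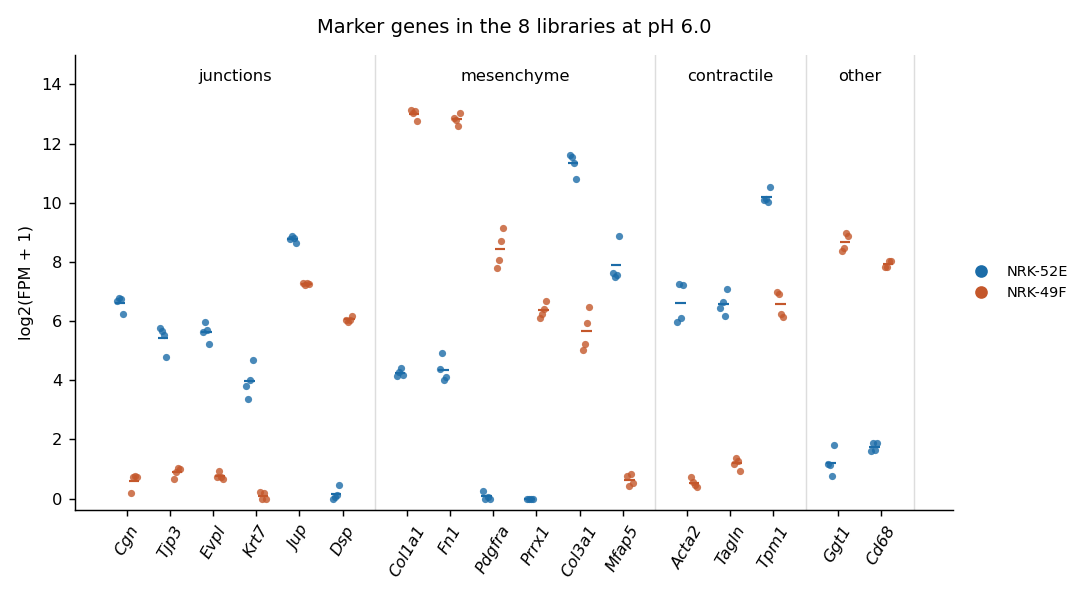
Levels of marker genes, as log2(FPM + 1), in each of the 8 libraries at pH 6.0, with short lines at the mean of the 4 values of a line. Junction genes other than Dsp, contractile genes, Col3a1 and Mfap5 sit higher in NRK-52E (blue), and Dsp, Col1a1, Fn1, Pdgfra, Prrx1, Ggt1 and Cd68 sit higher in NRK-49F (orange), with no overlap in any of the genes drawn. The genes drawn are a selection from the marker lists, and 64.4% of all genes tested did not overlap.

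NRK-52E is used as a model of the proximal tubule, and several genes known from that segment had no count in it. Slc34a1, the phosphate transporter of the brush border, had 0 counts over the NRK-52E libraries, and so had Slc5a1, Slc9a3, Slc6a19, Hnf4a, Pck1 and Miox, while Lrp2, the endocytic receptor megalin, had 1 count. Of 28 proximal tubule genes only 10 were tested, 4 DEGs higher in NRK-52E and 4 higher in NRK-49F, with a median of -0.58, which was -0.20 without N16 and -0.22 without the filter on low counts. Gatm, the first enzyme of creatine synthesis, measured 12.99 to 18.0 FPM in NRK-52E and 0.195 to 0.354 FPM in NRK-49F (5.80 ± 0.27), and Slc7a9, of cystine uptake, had no count in NRK-49F and was at least 27.4-fold higher in NRK-52E. Ggt1, a brush border enzyme of glutathione breakdown, was a gene of the fibroblast line, with 1.22, 1.21, 0.697 and 2.49 FPM in the NRK-52E libraries and 331, 351, 500.4 and 470.5 FPM in the NRK-49F libraries. N15 and N16 held more Ggt1 than N11 and N12, none of the NRK-52E libraries came near them, and the log2 fold change was -8.22 ± 0.32 (FDR 5.4e-10). Anpep, a brush border peptidase, measured 0.861 to 1.65 FPM in NRK-52E and 7.31 to 14.4 FPM in NRK-49F (-3.15 ± 0.31). The list summed to 53.3, 57.9, 45.0 and 65.5 FPM in the NRK-52E libraries, led by Aqp1, and 377, 403, 572 and 571 FPM in the NRK-49F libraries, led by Ggt1. Of 16 genes of the distal nephron and collecting duct, 4 were tested and 1, the sodium channel gene Scnn1a, was a DEG, higher in NRK-49F (-3.12 ± 0.31), while Umod, Aqp2 and Aqp4 had 0 counts in both lines. The distal list summed to 4.14 to 7.29 FPM per NRK-52E library and 10.6 to 13.9 FPM per NRK-49F library.

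Markers of cell types that neither line should hold were low with a few exceptions. Among 12 leukocyte genes, the defining Ptprc and Adgre1 had 0 counts in both lines, but the lysosomal glycoprotein gene Cd68 measured 2.02, 2.70, 2.13 and 2.68 FPM in the NRK-52E libraries and 224, 226, 263 and 258 FPM in the NRK-49F libraries, a log2 fold change of -6.68 ± 0.15 (FDR 1.1e-11). Cd74, the invariant chain of MHC class II, measured 0 to 0.246 FPM in NRK-52E and 13.2 to 25.1 FPM in NRK-49F, while Csf1r and Lyz2, at 0.820 to 1.28 and 2.57 to 4.42 FPM, were higher in NRK-52E. Of 4 tested, 2 were higher in each line (median -1.84, and -0.64 without the filter), and the list summed to 6.06 to 9.17 FPM per NRK-52E library and 247 to 278 FPM per NRK-49F library, nearly all of the latter Cd68. Endothelial genes (4 tested of 9, 1 higher in NRK-52E and 3 in NRK-49F, median -2.57) summed to 7.77 to 11.4 and 19.8 to 24.4 FPM per library, led by the receptor gene Tek in NRK-52E and by Egfl7 in NRK-49F, with Kdr and Emcn at 0 counts and Pecam1 not analysed here. Podocyte genes (2 tested of 6) split, as Synpo was higher in NRK-49F (-1.15 ± 0.26) and Podxl, which had no count there, was at least 249-fold higher in NRK-52E, and the list summed to 14.9 to 25.8 and 24.5 to 35.9 FPM per library. The podocyte median was 4.63, or 3.41 with Podxl at its bound, the single list whose median moved when genes at 0 counts were put at their bounds, and without the filter it was 0.17. Pericyte genes (3 tested of 6, 1 higher in NRK-52E and 2 in NRK-49F, median -1.22) summed to 15.7 to 20.5 and 16.4 to 19.7 FPM per library, with Abcc9 (6.43 ± 0.36) leading in NRK-52E and Notch3 (-1.22 ± 0.31) in NRK-49F. Without the filter on low counts the pericyte list turned, with 3 genes higher in NRK-52E, 2 in NRK-49F and a median of 3.26, and Notch3 lost its call under library totals and without N3, N11 or N15. Mixing between the lines can be bounded by genes abundant in 1 line: of 2242 genes with at least 100 FPM in NRK-49F, 23 were under 0.1% of that level in NRK-52E and 6 had 0 counts there. Of 2405 genes with at least 100 FPM in NRK-52E, 8 were under 0.1% in NRK-49F and 0 had 0 counts. In bulk RNA a difference in a marker cannot say whether fewer cells of a type or less RNA per cell lay behind it.

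Across all genes the lines were far apart. Of 13796 genes tested, 8251 (59.8%) were DEGs, 3939 higher in NRK-52E and 4312 higher in NRK-49F, and no DEG had opposite signs in the 2 tools. NRK-52E therefore took 47.7% of the DEGs, a share that was 55.0% with library totals in place of TMM and 49.9% with DESeq2's size factors, so which line has more DEGs depends on the scaling. With library totals the median over all genes went from -0.03 to 0.12, and list medians under that scaling shift with it. In size, the log2 fold change was 1 or more in 5488 DEGs (39.8% of genes tested), 2 or more in 2792 and 5 or more in 1040, 476 of these towards NRK-52E and 564 towards NRK-49F. The libraries of the 2 lines did not overlap in 8882 genes (64.4%), among them 8021 DEGs. For each of these genes the exact permutation p, two-sided and on log2(FPM + 1), is 0.0286, the smallest that 4 against 4 libraries allow. At 0 counts over a whole line stood 195 tested genes in NRK-52E and 132 in NRK-49F. Within NRK-52E, library N8 stood furthest from the others: the chi-square per degree of freedom between 2 libraries, which is 1 when they differ by counting error alone, was 43.7 to 92.2 in the 3 pairs with N8 and 9.11 to 39.4 in the pairs without it. Leaving N8 out raised the number of DEGs to 9263.

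By edgeR's fitted log2 fold change, the 10 named genes with the largest differences towards NRK-49F, Prrx1 among them, had at most 1 count over NRK-52E. Pooled counts need not order genes the same way. Ctsh, with 1 count over NRK-52E, had a ratio of 11549, and Axl, with 2 counts, a ratio of 8333. For Prrx1 the bound was 2380.2. Mmp3, the matrix metalloprotease stromelysin, had no count in NRK-52E and 344, 435, 743 and 1613 FPM in NRK-49F. Every NRK-49F library was high, though N16 held several times the value of N11, and with counts pooled over the 4 libraries the gene was at least 24832-fold higher in NRK-49F, or 15272-fold without N16. Vcan, the matrix proteoglycan versican, had no count in NRK-52E and 474, 506, 718 and 940.0 FPM in NRK-49F, at least 19720.0-fold higher. Grem1, a secreted antagonist of bone morphogenetic proteins, had no count in NRK-52E and an even 410.3, 477, 429.8 and 520.3 FPM in NRK-49F, at least 12956-fold higher. The vasodilator peptide gene Adm (at least 5739-fold), the proteoglycan gene Esm1 (at least 3500.3-fold), the homeobox gene Prrx2 (at least 3241-fold), the potassium channel gene Kcnq5 (at least 2582-fold) and the nuclear antigen gene Mnda (at least 2511-fold) were likewise at 0 counts in all NRK-52E libraries. Cd24, a surface glycoprotein, had 1 count over NRK-52E, in N7, and 377, 403, 556 and 574 FPM in NRK-49F, a ratio of 42008 (95% counting interval 7539.6 to 1659200.0). Towards NRK-52E, the rhomboid-like gene Rhbdl3 measured 63.1, 89.0, 95.7 and 94.6 FPM and had no count in NRK-49F, at least 2923-fold higher. Myh14, a heavy chain of non-muscle myosin, measured 197, 224, 226 and 166 FPM in the NRK-52E libraries and 0, 0.0663, 0.1300 and 0 FPM in the NRK-49F libraries, so the groups were far apart (11.83 ± 0.33). With no count in NRK-49F, the endosomal kinesin gene Kif16b (at least 1110.2-fold), the nudix hydrolase gene Nudt16 (at least 1073-fold), Thnsl2 (at least 832-fold), the glypican gene Gpc3 (at least 798-fold), Prxl2a (at least 696-fold) and the potassium channel gene Kcnk5 (at least 669-fold) were higher in NRK-52E. Ca13, a cytosolic carbonic anhydrase, measured 82.7, 71.0, 77.3 and 52.4 FPM in NRK-52E and had 1 count over NRK-49F, in N15, a ratio of 7069.9 (95% counting interval 1269 to 279250.0).

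Abundant genes separated the lines as well. Msln, for the surface glycoprotein mesothelin, measured 3316, 2939, 3025 and 2939.7 FPM in the NRK-52E libraries and 35.7, 36.7, 53.3 and 54.4 FPM in the NRK-49F libraries. Its 4 NRK-52E values lay close together and the log2 fold change was 6.07 ± 0.20 (FDR 1.1e-10). Igfbp2, a binding protein of insulin-like growth factors, measured 2418, 1848, 2059 and 2160.0 FPM in the NRK-52E libraries and 1.11, 0.995, 2.34 and 1.50 FPM in the NRK-49F libraries (10.41 ± 0.28). Tspan8, a tetraspanin, measured 778 to 1461 FPM in NRK-52E, with N8 on top, and 1.90 to 4.69 FPM in NRK-49F (8.33 ± 0.33), and Eps8l2, an actin regulator, 559.5 to 657 and 14.45 to 18.0 FPM (5.23 ± 0.13). Spp1, for the secreted phosphoprotein osteopontin, measured 6.48, 7.46, 4.34 and 9.26 FPM in the NRK-52E libraries and 7759.8, 8870.5, 9195 and 10420.2 FPM in the NRK-49F libraries. No NRK-52E library reached a hundredth of the NRK-49F levels of Spp1, and the log2 fold change was -10.38 ± 0.29 (FDR 4.7e-11). Aldh3a1, an aldehyde dehydrogenase, measured 2.14, 1.17, 1.31 and 1.79 FPM in the NRK-52E libraries and 4185, 5285, 6728 and 7389 FPM in the NRK-49F libraries (-11.88 ± 0.32), and Akr1b8, an aldo-keto reductase, 141 to 174 FPM in NRK-52E and 6428 to 8343 FPM in NRK-49F (-5.56 ± 0.17). For both enzymes the groups were apart, and for Aldh3a1 N11 was the lowest and N16 the highest NRK-49F library.

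**Figure D2:**
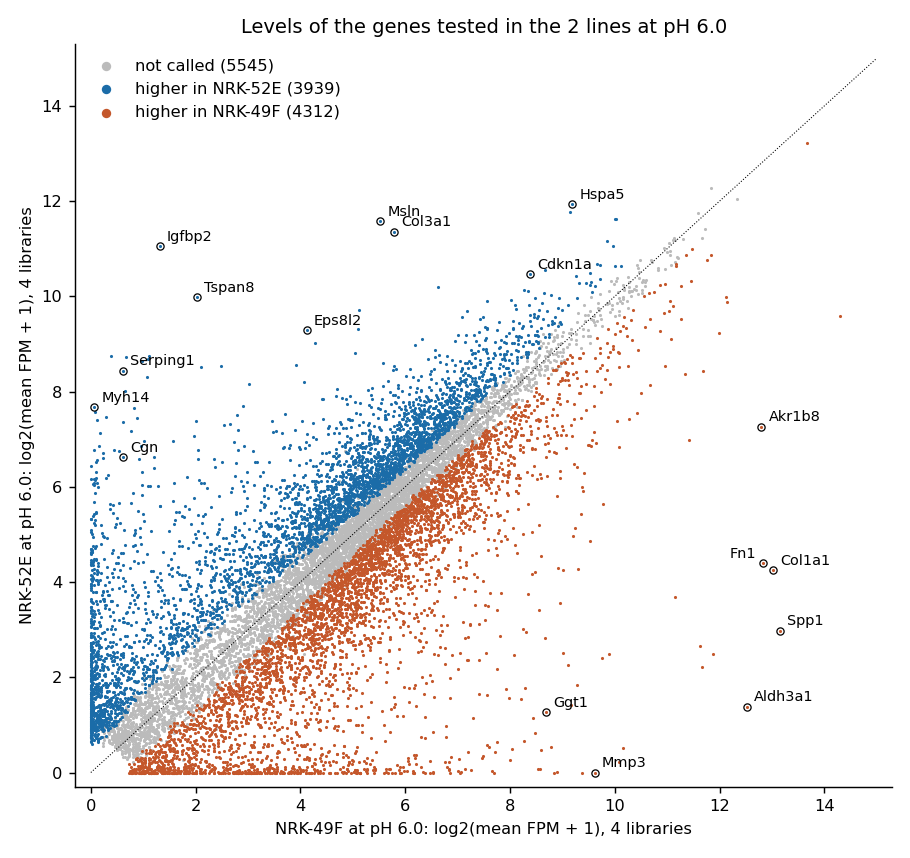
Mean level of each of the 13796 genes tested in NRK-49F (horizontal) and NRK-52E (vertical) at pH 6.0, as log2(mean FPM + 1) of 4 libraries, with DEGs in colour and 5545 genes not called in grey. Points on an axis are genes near 0 in 1 line, such as Mmp3 in NRK-52E and Myh14 in NRK-49F, and the dotted line marks equal levels.

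Genes of the extracellular matrix were divided between the lines by molecule. Of 23 collagen chain genes tested, 12 were higher in NRK-52E and 9 in NRK-49F (median 1.08). For this and the next lists, the shares over all genes tested were 28.6% and 31.3%. Col8a1, of the network collagen type VIII, measured 0.489, 0.315, 0.328 and 0.611 FPM in the NRK-52E libraries and 1179, 1027, 1077 and 1263 FPM in the NRK-49F libraries. Its partner chain gene Col8a2 ran in the opposite direction, with 16.8, 22.7, 18.3 and 30.0 FPM in the NRK-52E libraries and 0.221, 0.464, 0.617 and 0.438 FPM in the NRK-49F libraries. Neither gene overlapped between the lines, and the log2 fold changes were -11.37 ± 0.22 for Col8a1 and 5.60 ± 0.31 for Col8a2. Col2a1, of cartilage collagen, was higher in NRK-52E (5.50 ± 0.47), and Col27a1, with 3 counts over NRK-52E, was higher in NRK-49F by a ratio of 459 (95% counting interval 157 to 2226). Basement membrane genes were split too, 9 of 19 tested being higher in NRK-52E and 8 in NRK-49F (median 0.39). The laminin chain genes Lama4 and Lama1 had no count in NRK-52E and measured 35.2, 30.8, 32.2 and 37.8 FPM and 10.4, 11.01, 19.6 and 24.3 FPM in NRK-49F, at least 967-fold and 498-fold higher. Nid1, which links laminin to collagen, measured 0 to 0.183 FPM in NRK-52E and 73.5 to 169.7 FPM in NRK-49F (-10.30 ± 0.46). On the NRK-52E side, Fras1, of the epithelial basement membrane, measured 37.9, 50.8, 42.8 and 24.3 FPM and had no count in NRK-49F (at least 1315-fold higher), and Npnt, the integrin ligand nephronectin, measured 54.2, 82.7, 82.6 and 38.8 FPM in the NRK-52E libraries and 0, 0, 0.163 and 0.0313 FPM in the NRK-49F libraries (9.95 ± 0.47). Integrins, the receptors for this matrix, were mostly higher in NRK-49F, 12 of 18 tested against 3 higher in NRK-52E (median -1.33). The collagen-binding alpha chains Itga11 (-9.27 ± 0.46) and Itga2, the latter with 1 count over NRK-52E and a ratio of 738 (95% counting interval 132 to 29136), were higher in NRK-49F, and the laminin-binding chain gene Itga7 was higher in NRK-52E (2.77 ± 0.17). Matrix proteases and their inhibitors leaned the same way, with 21 of 31 higher in NRK-49F and 5 in NRK-52E (median -2.70). Besides Mmp3, the metalloprotease gene Mmp13 had no count in NRK-52E and 5.84, 7.83, 22.9 and 36.0 FPM in NRK-49F (at least 589-fold higher, or 392-fold without N16), and Mmp10 had 1 count in NRK-52E and 34.8, 36.6, 78.0 and 170.4 FPM in NRK-49F, a ratio of 7707 (95% counting interval 1383 to 304410.0), or 4601 without N16. All 3 genes lie on chromosome 8 and increased in the same order of libraries, N11 lowest and N16 highest, and in none did the groups overlap. Mmp15, a membrane-anchored metalloprotease, measured 45.0, 42.9, 31.1 and 17.4 FPM in the NRK-52E libraries and 1.46, 0.928, 0.715 and 0.532 FPM in the NRK-49F libraries, higher in NRK-52E without overlap (5.25 ± 0.38). Adamts3, which trims procollagen, was at 0 counts in NRK-49F and at least 153-fold higher in NRK-52E. Claudins (4 tested of 23, 3 higher in NRK-52E and 0 in NRK-49F, median 3.81, and 1.71 without the filter) included Cldn15 at 26.3 to 75.1 FPM in NRK-52E and 0.199 to 0.5005 FPM in NRK-49F (6.88 ± 0.41), with Cldn6 (4.91 ± 0.50) and Cldn9 (2.71 ± 0.59) beside it. Keratins divided by gene, 4 of 9 tested being higher in NRK-52E against 3 in NRK-49F, and their median of -0.07 became 0.08 under library totals. Krt80 (5.71 ± 0.38) and Krt10, at 0 counts in NRK-49F and at least 182-fold higher in NRK-52E, stood on one side. On the other, the stratified epithelium keratins Krt15 and Krt13 measured 5.09, 10.3, 38.1 and 63.1 FPM and 3.81, 5.57, 9.78 and 10.1 FPM in NRK-49F and at most 0.180 and 0.235 FPM in NRK-52E. Neither overlapped between the lines (-7.91 ± 0.95 and -6.22 ± 0.57), and Krt15 varied widely among the NRK-49F libraries, with N16 far above N11.

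Signalling molecules differed in both directions. Of 70 secreted growth factor and cytokine genes tested, 26 were higher in NRK-52E, 34 in NRK-49F and 10 were not called (median -0.55). Counts of this list and of the receptors stand beside 28.6% and 31.3% called in these directions over all genes tested. Pdgfb, a chain of platelet-derived growth factor, measured 23.2, 19.1, 18.4 and 24.1 FPM in the NRK-52E libraries and 0.0443, 0, 0.260 and 0 FPM in the NRK-49F libraries. Pdgfb was thus a gene of NRK-52E (7.81 ± 0.50, FDR 4.0e-08), and the receptor gene Pdgfra, which binds its product, was one of NRK-49F. Edn1, the precursor of the vasoconstrictor endothelin, was higher in NRK-52E (8.44 to 13.9 FPM against 0.177 to 0.313 FPM, 5.48 ± 0.31), and Fgf18, with 3 counts over NRK-49F, by a ratio of 266 (95% counting interval 90.9 to 1289). Besides Grem1, the matricellular gene Thbs2 (at least 335-fold) and the Wnt modulator gene Dkk3, by a ratio of 2559.5 (95% counting interval 709 to 21135), were higher in NRK-49F. Of 60 receptor genes tested, 23 were higher in NRK-52E and 19 in NRK-49F (median 0.16, from 0.0960 without N4, where 21 were higher in NRK-49F, to 0.26 without N8). Axl, the receptor of Gas6, had 2 counts over NRK-52E and 237, 207, 167 and 196 FPM in NRK-49F, a ratio of 8333 (95% counting interval 2307 to 68806). Il1rl1, the receptor of interleukin 33, had no count in NRK-52E and was at least 481-fold higher in NRK-49F. Erbb3, which binds neuregulins, measured 63.2, 66.2, 59.0 and 40.9 FPM in the NRK-52E libraries and 1.06, 0.464, 0.682 and 0.751 FPM in the NRK-49F libraries, and Fgfr1, a fibroblast growth factor receptor, 19.7 to 40.1 FPM in NRK-52E and 0.626 to 1.06 FPM in NRK-49F. Both receptors were higher in NRK-52E without overlap (6.22 ± 0.25 and 5.35 ± 0.27), with N8 the lowest NRK-52E library.

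Genes of positional and tubule identity split as well. HOX genes, which keep a record of body position, were tested in 29 of 34, 12 higher in NRK-52E, 8 higher in NRK-49F and 9 not called (median 0.18, from 0.08 without N8 to 0.34 without N3, and 0.56 without the filter). Among all genes tested, 28.6% were called higher in NRK-52E and 31.3% higher in NRK-49F. Hoxd11 measured 0 to 0.205 FPM in NRK-52E and 5.18, 6.23, 6.76 and 5.79 FPM in NRK-49F (-5.78 ± 0.51), and Hoxb7 9.42, 6.88, 5.25 and 10.48 FPM and 27.5, 34.6, 39.7 and 33.9 FPM (-2.10 ± 0.22). Hoxc13, with 80 counts over NRK-52E and 2 over NRK-49F, was higher in NRK-52E by a ratio of 47.7 (95% counting interval 13.2 to 394), and so was Hoxb2 (1.45 ± 0.16). Of the tubule transcription factors with Cdh16, 5 of 13 were tested and all were DEGs, 3 higher in NRK-52E and 2 in NRK-49F (median 1.33). Emx2, a homeobox gene of the urogenital tract, measured 16.9, 18.2, 17.8 and 19.2 FPM in NRK-52E and had 2 counts over NRK-49F, a ratio of 908 (95% counting interval 251 to 7498). Wt1, a zinc finger gene of the nephron progenitor and podocyte, measured 1.16, 1.80, 1.89 and 1.88 FPM in NRK-52E and had no count in NRK-49F (at least 57.6-fold higher). Tfap2a, a factor of the distal nephron and ectoderm, measured 12.6, 13.4, 12.50 and 11.8 FPM in the NRK-52E libraries and 232, 222, 247 and 209 FPM in the NRK-49F libraries (-4.19 ± 0.11), so it was higher in every NRK-49F library. The third gene higher in NRK-52E, Gata3 (1.33 ± 0.32), lost its call without N15.

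Acidosis makes tubule cells move protons and bicarbonate and turn glutamine into ammonia. Listed genes of these tasks were called in shares near those of all genes tested, 28.6% higher in NRK-52E against 31.3% in NRK-49F. The acid-base list held 54 symbols, of which 43 were found. Several carbonic anhydrases had been entered under symbols that the counts do not use. Ca13, with a ratio of 7069.9 towards NRK-52E, is therefore missing from it. Of the 43 acid-base transport and proton-sensing genes found, 20 were tested, 7 higher in NRK-52E, 6 in NRK-49F and 7 not called. Their median of 0.09 had no firm sign: it was -0.0405 without N11, 0.25 under library totals and 0.30 without the filter. Slc4a7, a sodium bicarbonate cotransporter, measured 4.34, 8.496, 7.05 and 3.90 FPM in the NRK-52E libraries and 43.0, 46.6, 51.4 and 64.3 FPM in the NRK-49F libraries. Higher in all NRK-49F libraries, it had a log2 fold change of -3.12 ± 0.24 (FDR 2.2e-07), against -0.90 at pH 7.4, and the interaction of line and pH was -2.14 ± 0.46 (FDR 8.2e-04). The kidney bicarbonate cotransporter gene Slc4a4 (-2.29 ± 0.31) and the monocarboxylate transporter gene Slc16a7 (-4.81 ± 0.47) were also higher in NRK-49F. Trpv4, a cation channel that responds to osmotic stretch, measured 7.46, 6.43, 9.18 and 9.03 FPM in the NRK-52E libraries and 0, 0.0663, 0.0975 and 0 FPM in the NRK-49F libraries (7.46 ± 0.50). Slc4a11, of the bicarbonate transporter family (3.82 ± 0.27), and the acid-sensing channel gene Asic4 (2.51 ± 0.39) were, like Trpv4, higher in every NRK-52E library than in any NRK-49F library. Among 15 tested genes of glutamine use and ammonia production, 5 were higher in each line (median 0.21). Under library totals 7 were higher in NRK-52E against 3 in NRK-49F, and leaving out N7 also left 3 higher in NRK-49F, while the median was 0.13 without N3. Gls2, a glutaminase, was higher in NRK-49F (6.68 to 10.01 FPM in NRK-52E, 29.4 to 36.3 FPM in NRK-49F, -1.92 ± 0.16), as was the glutamine transporter gene Slc38a1 (-1.44 ± 0.17). The mitochondrial glutamate carrier gene Slc25a18 measured 3.73, 3.96, 3.57 and 2.73 FPM in NRK-52E and at most 0.163 FPM in NRK-49F (5.55 ± 0.49), and the aspartate aminotransferase gene Got1 was higher in NRK-52E (1.48 ± 0.09).

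The ATF4, unfolded protein and cholesterol lists leaned to NRK-52E at pH 6.0, whereas at pH 7.4 their members were called in the 2 directions in more even numbers. Amino acid shortage and unfolded protein in the endoplasmic reticulum are known to raise the factor ATF4, which drives amino acid and redox genes, and unfolded protein also calls up chaperones, while low sterol calls up the genes of cholesterol synthesis. Over all 14026 genes tested at pH 7.4, 4668 were DEGs higher in NRK-52E and 4670 were DEGs higher in NRK-49F. Of 32 ATF4 target and stress genes, all tested, 23 were higher in NRK-52E and 6 in NRK-49F at pH 6.0 (median 1.63). At pH 7.4, with 29 tested, the counts were 8 and 9 (median -0.09), near the shares of all genes. The interaction of line and pH, which asks whether the difference between the lines was itself different at pH 6.0, was called at an FDR below 0.01 in 37.0% of the 14679 genes tested for it. In the ATF4 list it was called in 19 genes towards NRK-52E and 1 towards NRK-49F, the same counts as under library totals. Trib3, a pseudokinase that restrains this response, measured 224, 173, 151 and 115 FPM in the NRK-52E libraries and 22.3, 18.7, 13.3 and 7.10 FPM in the NRK-49F libraries. In each line the first library listed was the highest and the last the lowest, the groups were apart, and the log2 fold change was 3.43 ± 0.32 (FDR 1.2e-06) at pH 6.0 and 0.45 at pH 7.4, an interaction of 3.06 ± 0.40 (FDR 7.4e-06). Chac1, which degrades glutathione, measured 73.4, 61.5, 49.8 and 50.5 FPM in the NRK-52E libraries and 9.87, 7.69, 5.30 and 3.47 FPM in the NRK-49F libraries. Here too every NRK-52E library was higher (3.16 ± 0.28 at pH 6.0, 0.71 at pH 7.4), with an interaction of 2.53 ± 0.33 (FDR 5.6e-06). Atf3, a stress-induced transcription factor, was likewise higher in every NRK-52E library (2.78 ± 0.29 at pH 6.0). Among the 6 exceptions were the cystine transporter gene Slc7a11 (0.752 to 2.70 FPM in NRK-52E, 27.7 to 105 FPM in NRK-49F, -5.04 ± 0.50), the folate enzyme gene Aldh1l2 (-4.11 ± 0.41) and the secreted glycoprotein gene Stc2 (-2.93 ± 0.28), all higher in NRK-49F. Of 26 unfolded protein response genes, 18 were higher in NRK-52E and 3 in NRK-49F at pH 6.0 (median 0.66), against 6 and 10 at pH 7.4 (median -0.06), and the interaction was called towards NRK-52E in 17 and towards NRK-49F in 0, or 13 and 1 under library totals. Without N3, 1 gene of the list was higher in NRK-49F at pH 6.0. Hspa5, the chaperone BiP, measured 4568, 4027, 4196 and 2889 FPM in the NRK-52E libraries and 712, 623, 524 and 474 FPM in the NRK-49F libraries. N8 was the lowest NRK-52E library and still held several times the highest NRK-49F value, the log2 fold change was 2.73 ± 0.19 (FDR 7.3e-08) at pH 6.0 and 0.34 at pH 7.4, and the interaction was 2.47 ± 0.20 (FDR 3.3e-08). Herpud1, of protein degradation at the endoplasmic reticulum, measured 228 to 307 FPM in NRK-52E and 31.0 to 44.5 FPM in NRK-49F (2.77 ± 0.15, interaction 1.95 ± 0.17), and the cochaperone gene Sdf2l1 had a log2 fold change of 1.83 ± 0.12 at pH 6.0 and 0.13 at pH 7.4. The mannosidase-like gene Edem1 was higher in NRK-49F (-2.26 ± 0.27), whereas 2 other calls in that direction did not hold throughout. That of Syvn1 (-0.44 ± 0.11) was lost under library totals and without N3 or N7, and that of Pdia4 (-0.39 ± 0.11) under library totals, under DESeq2's size factors and without N3, N4, N7, N11, N12 or N15. Of 24 cholesterol synthesis and uptake genes tested, 18 were higher in NRK-52E and 1, the mevalonate kinase gene Mvk (-0.97 ± 0.17), in NRK-49F (median 1.48), against 9 and 4 at pH 7.4 (median 0.23). Interactions towards NRK-52E were called in 15 of them and towards NRK-49F in 0, or 14 and 0 under library totals. Hmgcs1, an early enzyme of the pathway, measured 319.8, 368, 443 and 343 FPM in the NRK-52E libraries and 64.6, 54.8, 54.6 and 43.3 FPM in the NRK-49F libraries, with no overlap (2.74 ± 0.15 at pH 6.0, 1.13 at pH 7.4). The isomerase gene Idi1 (2.87 ± 0.16) and the squalene synthase gene Fdft1 (2.33 ± 0.15) followed it.

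**Figure D3:**
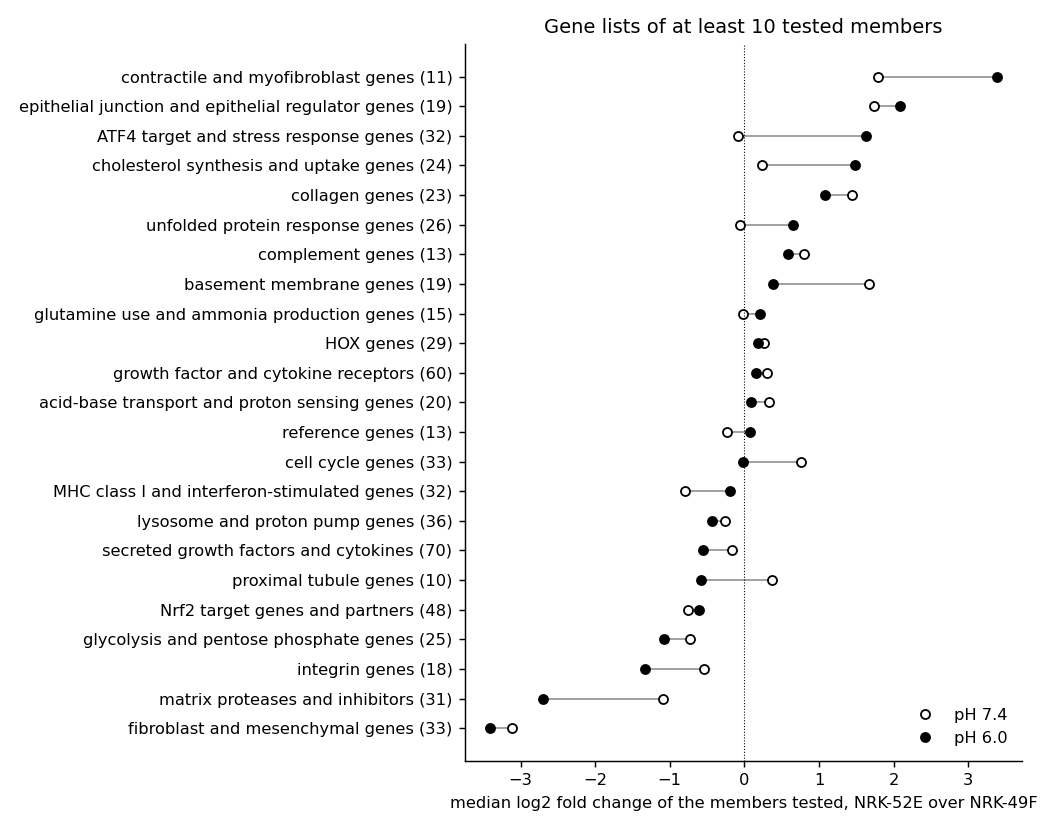
Median log2 fold change, NRK-52E over NRK-49F, of each gene list with at least 10 members tested at pH 6.0, at pH 6.0 (filled) and pH 7.4 (open), with the number of members tested at pH 6.0 in brackets. The medians of the ATF4, unfolded protein and cholesterol lists lie at 1.63, 0.66 and 1.48 at pH 6.0 and at -0.09, -0.06 and 0.23 at pH 7.4, where a few members more or fewer were tested in some lists.

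Because members of the stress lists were higher together in NRK-52E, their promoters were searched for the elements these responses are known to use. RefSeq promoter windows of the GRCr8 build, 250 bases before to 50 after each gene's start, were read on both strands, 27457 in all. The ER stress response element, spelled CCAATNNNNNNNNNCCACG, was found in 8 of the 20 unfolded protein response genes with a window (40.0%) and in 21 of all promoters (0.0765%). By direction, 7 of 14 such genes higher in NRK-52E held it and 0 of 3 higher in NRK-49F. The C/EBP-ATF response element, spelled TGATGNAA, was found in 7 of 27 ATF4 list promoters (25.9%), 5 of 20 higher in NRK-52E and 2 of 5 higher in NRK-49F, against 1048 of all promoters (3.82%). Genes reached these lists partly through studies of these elements, so the shares describe the lists. None of the motifs contains another, and a match is a description, not a site or a cause. Hspa5, Trib3 and Chac1 are shown because they are among the named stress genes higher in NRK-52E and hold a match, printed in capitals and running with the gene or as its reverse complement. Their windows lie at chr3:38452766-38453065 (plus strand) for Hspa5, chr3:161275484-161275783 (minus strand) for Trib3 and chr3:126795881-126796180 (plus strand) for Chac1.
Hspa5: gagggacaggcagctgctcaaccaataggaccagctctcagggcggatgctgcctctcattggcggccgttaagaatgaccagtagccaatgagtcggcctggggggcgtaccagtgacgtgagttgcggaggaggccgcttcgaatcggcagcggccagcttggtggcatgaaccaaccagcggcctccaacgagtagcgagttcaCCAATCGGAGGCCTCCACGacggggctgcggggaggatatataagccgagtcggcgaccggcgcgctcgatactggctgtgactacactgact
Trib3: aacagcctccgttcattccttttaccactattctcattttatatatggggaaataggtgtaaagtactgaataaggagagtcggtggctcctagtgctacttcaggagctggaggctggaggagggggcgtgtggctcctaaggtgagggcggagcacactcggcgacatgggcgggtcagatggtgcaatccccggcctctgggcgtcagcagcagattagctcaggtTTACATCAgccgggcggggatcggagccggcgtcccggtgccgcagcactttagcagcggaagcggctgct
Chac1: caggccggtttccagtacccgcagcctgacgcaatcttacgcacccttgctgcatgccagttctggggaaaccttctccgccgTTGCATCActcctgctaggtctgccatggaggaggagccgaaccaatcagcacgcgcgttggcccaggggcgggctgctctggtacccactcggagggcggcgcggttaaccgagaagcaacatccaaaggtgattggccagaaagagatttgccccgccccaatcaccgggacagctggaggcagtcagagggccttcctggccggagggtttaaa

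Genes of sugar use were mostly higher in the fibroblast line. Of 25 glycolysis and pentose phosphate genes, all tested, 19 were higher in NRK-49F and 2 in NRK-52E (median -1.08). Pfkp, the platelet form of phosphofructokinase, measured 1.28, 1.48, 0.656 and 1.36 FPM in the NRK-52E libraries and 324, 334, 366 and 366 FPM in the NRK-49F libraries. The 4 NRK-49F values nearly coincided, far above NRK-52E, and the log2 fold change was -8.21 ± 0.21 (FDR 2.5e-11). The glucose transporter gene Slc2a3, with 1 count over NRK-52E, measured 17.3, 10.3, 12.3 and 10.9 FPM in NRK-49F, a ratio of 1070.0 (95% counting interval 192 to 42261), and the lactate dehydrogenase gene Ldhb was higher there too (-3.17 ± 0.20). Tkt, the transketolase of the pentose phosphate pathway that the study followed, measured 1392, 1109.7, 1188 and 1068 FPM in the NRK-52E libraries and 2361, 2409, 2806 and 2238 FPM in the NRK-49F libraries. Every NRK-49F library had more Tkt than any NRK-52E library (-1.06 ± 0.13 at pH 6.0, -0.31 at pH 7.4, interaction -0.67 ± 0.16 with FDR 0.0019). The study's own result, more TKT mRNA and protein in NRK-52E under acidosis, compares pH values within that line. It is a different measure from the difference between the lines. The exceptions were Pfkfb3, which makes the activator of phosphofructokinase (2.11 ± 0.14), and the aldolase gene Aldoc (1.37 ± 0.24), both higher in NRK-52E.

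The Nrf2 pathway, which the study examined in its own tests of acidosis, guards cells against oxidants through glutathione and detoxifying enzymes. Nfe2l2, the gene of Nrf2 itself, measured 328, 268, 283 and 230.3 FPM in the NRK-52E libraries and 283, 303, 332 and 312 FPM in the NRK-49F libraries. Those ranges overlapped and the difference was not called (-0.16 ± 0.12, FDR 0.24), nor was that of its inhibitor gene Keap1 (-0.27 ± 0.13, FDR 0.076). Of 48 Nrf2 targets and partners tested, 14 were higher in NRK-52E, 24 in NRK-49F and 10 were not called (median -0.61). Besides Aldh3a1 and Akr1b8, the oxidase gene Aox1 stood out towards NRK-49F, with 7.22, 5.84, 5.21 and 5.97 FPM in the NRK-52E libraries and 321, 338, 432 and 524 FPM in the NRK-49F libraries (-6.08 ± 0.20). Gpx2, a glutathione peroxidase of epithelia, measured 5.75, 4.18, 4.22 and 7.10 FPM in NRK-52E and had no count in NRK-49F (at least 175-fold higher). Ephx1, the microsomal epoxide hydrolase, measured 559, 484, 577 and 446 FPM in the NRK-52E libraries and 23.0, 17.2, 19.9 and 13.1 FPM in the NRK-49F libraries. All NRK-52E libraries were far higher for Ephx1 (4.80 ± 0.19), while at pH 7.4 the log2 fold change was 0.03 and the interaction 4.86 ± 0.20 (FDR 3.2e-11). The glutathione transferase gene Gsta4 was also higher in NRK-52E (2.64 ± 0.21). Interactions in this list were called towards NRK-52E in 19 genes and towards NRK-49F in 12, a lean that was 14 to 14 under library totals. The antioxidant response element, spelled TGACNNNGC, was found in 14 of 42 promoters of the list (33.3%) and in 12.2% of all promoters, with 5 of 10 genes higher in NRK-52E and 5 of 21 higher in NRK-49F holding it.

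Genes of growth, degradation and defence completed the lists. Of 33 cell cycle genes tested, 9 were higher in NRK-52E and 11 in NRK-49F (median -0.02). These counts were near the shares of all genes tested, 28.6% and 31.3%, and were 10 and 8 under library totals. At pH 7.4 the counts were 22 and 6 (median 0.76). Mcm6, a subunit of the replicative helicase, measured 20.7, 19.8, 16.3 and 28.5 FPM in the NRK-52E libraries and 77.4, 87.9, 102 and 126 FPM in the NRK-49F libraries. The groups were apart, N16 held the most, and the subunits Mcm6 (-2.22 ± 0.19), Mcm3 (-1.73 ± 0.20) and Mcm7 (-1.65 ± 0.18) were all higher in NRK-49F, where at pH 7.4 the log2 fold changes were -0.36, 0.98 and 0.51. Cdc20, an activator of the anaphase complex, measured 117 to 143 FPM in NRK-52E and 16.3 to 19.6 FPM in NRK-49F (2.86 ± 0.12), and the cyclin genes Ccnd2 (6.94 ± 0.53) and Ccne1 (2.40 ± 0.19) were higher in NRK-52E too. Of 36 lysosome and proton pump genes tested, 8 were higher in NRK-52E and 16 in NRK-49F (median -0.43), or 12 and 13 under library totals. Ctsl, the lysosomal protease cathepsin L, measured 355, 301, 329 and 392 FPM in the NRK-52E libraries and 2288, 2656, 3716 and 4528 FPM in the NRK-49F libraries (-3.27 ± 0.22), and cathepsin D, from Ctsd, was also higher in NRK-49F (-2.28 ± 0.16). Ctsk, a collagen-degrading cathepsin, measured 60.2, 46.6, 49.3 and 26.3 FPM in the NRK-52E libraries and 2.75, 2.98, 3.02 and 2.002 FPM in the NRK-49F libraries. It was higher in every NRK-52E library at pH 6.0 (4.08 ± 0.26), whereas at pH 7.4 the log2 fold change was -0.29 and the interaction 4.45 ± 0.39 (FDR 7.4e-08). The lysosomal regulator gene Tfeb was higher in NRK-52E too (1.74 ± 0.15). Of 32 MHC class I and interferon-stimulated genes tested, 10 were higher in each line and 12 not called (median -0.19, and -0.09 without N8). These counts are near the shares of all genes tested, 28.6% and 31.3%. Under library totals at pH 6.0 they were 11 and 9 (median -0.04). At pH 7.4, 2 were higher in NRK-52E and 25 in NRK-49F. Interactions in this list were called towards NRK-52E in 17 and towards NRK-49F in 2. Usp18, which removes the ubiquitin-like protein ISG15, was higher in NRK-49F (2.45 to 7.85 FPM in NRK-52E, 118 to 146 FPM in NRK-49F, -4.81 ± 0.27), and Ifi44 was higher in NRK-52E (1.72 ± 0.14) where at pH 7.4 it had -0.74. Of 13 complement genes tested, 7 were higher in NRK-52E and 4 in NRK-49F (median 0.59). The protease genes C1s (-5.31 ± 0.19) and C1r (-2.71 ± 0.13) were higher in NRK-49F, and the gene of their inhibitor, Serping1, measured 414, 335, 308 and 327 FPM in the NRK-52E libraries and 0.177, 0.398, 1.01 and 0.532 FPM in the NRK-49F libraries. No NRK-49F library exceeded a few FPM of Serping1, and the log2 fold change was 9.23 ± 0.30 (FDR 1.4e-10). C3, the central complement component, measured 16.3 to 39.1 FPM in NRK-52E and 2.21 to 4.03 FPM in NRK-49F (3.28 ± 0.29). Of 13 genes often used as references, 5 were higher in NRK-52E and 3 in NRK-49F (median 0.07, and 0.0115 without N12), a share close to the 59.8% called among all genes. Among them were Hprt1 (1.63 ± 0.12), Ywhaz (0.82 ± 0.12) and Gusb (-1.27 ± 0.16), with Gapdh not analysed here.

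Genes called at both pH values mostly differed between the lines in the same direction. At pH 7.4, 9338 of 14026 genes (66.6%) were DEGs. Both pH values shared 5838 DEGs, 70.8% of the pH 6.0 DEGs and 62.5% of the pH 7.4 DEGs. These shares are near the 66.6% of all genes tested at pH 7.4 and the 59.8% at pH 6.0. Of the 5838 shared DEGs, 5311 (91.0%) had the same sign and 527 (9.03%) had opposite signs. Among the 527, 232 were higher in NRK-52E at pH 6.0 and 295 higher in NRK-49F at pH 6.0. All 527 had a called interaction, which choosing them by opposite calls in the same libraries made nearly certain. Of the 3064 shared DEGs whose change was 1 log2 or more in size at both pH values, 96 had opposite signs. A further 1461 pH 6.0 DEGs did not reach an FDR of 0.05 at pH 7.4 in either tool, of which 1052 (72.0%) had a called interaction. That share too is raised by the way these genes were chosen. Among all genes 5428 had a called interaction, 2841 towards NRK-52E and 2587 towards NRK-49F, and under library totals these counts were 1829 and 3596. Without N3 they were 2016 and 2743, so the more frequent direction depends on the scaling and on 1 library. Among the lists, interactions leaned to NRK-49F in basement membrane (0 towards NRK-52E, 11 towards NRK-49F), collagen (3 and 14) and cell cycle genes (5 and 15). Fibroblast genes (3 and 13) and matrix proteases with their inhibitors (4 and 13) leaned the same way. The ATF4 (19 and 1), unfolded protein (17 and 0), cholesterol (15 and 0) and MHC class I and interferon (17 and 2) lists leaned to NRK-52E. Cdkn1a, the inhibitor of cyclin-dependent kinases p21, measured 1699.5, 1431, 1578 and 937 FPM in the NRK-52E libraries and 369.5, 326, 369.6 and 264 FPM in the NRK-49F libraries at pH 6.0. Its NRK-52E libraries were all higher, N8 least so, and the log2 fold change was 2.07 ± 0.19 (FDR 9.9e-07). At pH 7.4 the means were 29.1 ± 5.04 FPM in NRK-52E and 249.5 ± 12.8 FPM in NRK-49F (SD, n = 4), a log2 fold change of -3.02, and the interaction was 5.17 ± 0.24 (FDR 6.3e-11). Plk2, a stress-responsive kinase, measured 258, 268, 264 and 123 FPM in the NRK-52E libraries and 23.2, 17.2, 22.8 and 19.0 FPM in the NRK-49F libraries at pH 6.0 (3.46 ± 0.24), against -1.40 at pH 7.4. The intermediate filament gene Nes (3.55 ± 0.28 and -1.41), the formin gene Fhdc1 (3.42 ± 0.22 and -0.93) and the phosphatase gene Ptprv (0.85 ± 0.21 and -4.15) turned in the same way between pH 6.0 and pH 7.4, though Ptprv lost its pH 6.0 call without N7, N12 or N15. Ampd3, an AMP deaminase, measured 8.81, 6.56, 8.20 and 8.32 FPM in the NRK-52E libraries and 92.0, 96.8, 158 and 201 FPM in the NRK-49F libraries at pH 6.0. Here the NRK-49F libraries were higher (-4.12 ± 0.26), N15 and N16 most, whereas at pH 7.4 the means were 22.2 ± 3.15 FPM in NRK-52E and 3.42 ± 0.471 FPM in NRK-49F (2.78), and the interaction was -6.82 ± 0.32 (FDR 6.4e-11). Mroh2a (-3.71 ± 0.42 at pH 6.0 and 1.73 at pH 7.4), the adhesion receptor gene Adgrg1 (-1.64 ± 0.35 and 3.40), Lgi4 (-3.24 ± 0.38 and 1.01) and Fam227a (-1.90 ± 0.48 and 2.63) turned like Ampd3, and Fam227a lost its pH 6.0 call without N7. Among genes with a difference at pH 6.0 and none called at pH 7.4, the chemokine scavenger gene Ackr4 measured 1.04, 1.26, 1.11 and 2.73 FPM in the NRK-52E libraries and 41.8, 44.1, 66.8 and 54.2 FPM in the NRK-49F libraries (-5.08 ± 0.30 at pH 6.0, -0.02 at pH 7.4, interaction -4.98 ± 0.29). Mmd (-4.30 ± 0.33 and 0.20), the monocarboxylate transporter gene Slc16a11 (-4.05 ± 0.38 and 0.13), Phf19 of the Polycomb system (-3.75 ± 0.30 and -0.33) and Anpep (-3.15 ± 0.31 and 0.01) were higher in NRK-49F in this way. Towards NRK-52E, besides Ephx1 and Ctsk, the carboxylesterase gene Ces2c measured 37.1, 37.0, 39.3 and 30.8 FPM in the NRK-52E libraries and 2.13, 1.33, 2.44 and 2.19 FPM in the NRK-49F libraries (4.11 ± 0.20 at pH 6.0, 0.26 at pH 7.4), and Scgb1c1 (4.26 ± 0.34 and -0.66) and the interferon-induced gene Mx2 (3.46 ± 0.45 and -0.06) did the same.

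**Figure D4:**
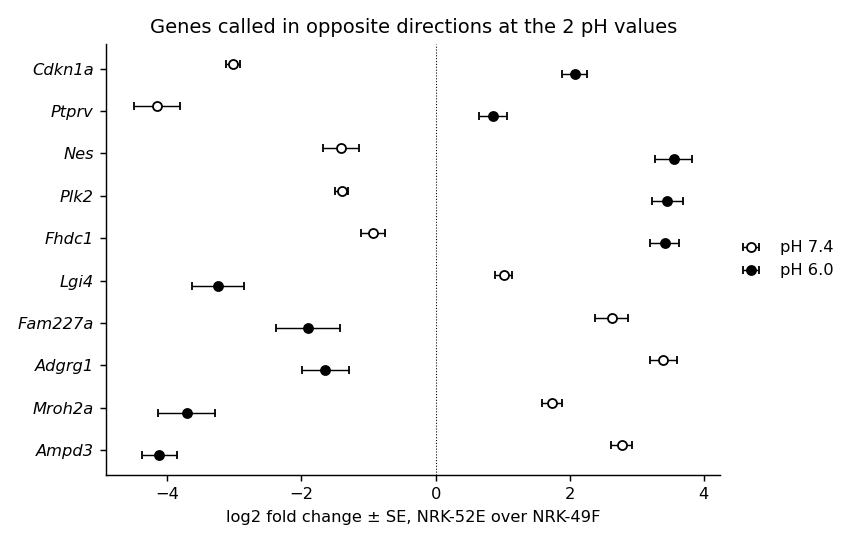
Log2 fold change with its SE, NRK-52E over NRK-49F, at pH 6.0 (filled) and pH 7.4 (open), n = 4 libraries per line and pH, of the 10 genes with the largest interactions among those that were DEGs at both pH values with opposite signs. Ampd3 goes from 2.78 at pH 7.4 to -4.12 at pH 6.0 and Cdkn1a from -3.02 to 2.07.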

How the data were processed

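Poly(A) RNA of both lines was read as pairs of 150 bp, and the authors deposited a table of each gene's count, not normalized, in 16 libraries for 32623 genes. The published methods name tophat2 for mapping, the submitters' notes name HISAT2 2.1.0, and both name featureCounts and the rn6 genome; which mapper made the counts is unknown, the methods count fragments that map to several places, and strand use is not named. Groups follow the labels, and no library was left out. The 37 genes of the mitochondrial chromosome have 0 counts, and library totals are given with the results. DEGs were called by edgeR 4.0.16 (quasi-likelihood, TMM, filterByExpr) and DESeq2 1.42.0 (Wald) in R 4.3.3, each fitted to the 8 libraries of a pH over all genes, with an FDR below 0.01 in both. Log2 fold changes are edgeR's, and SE is their absolute value over the root of the F statistic. The interaction is the difference between the lines at pH 6.0 less that at pH 7.4, from edgeR on 16 libraries. Exact permutation tests are two-sided. Named genes are the 10 DEGs with the largest change in each direction among those with a symbol (not a LOC, RGD, AABR, AC or clone name), of at least 10 FPM in the higher line whose libraries do not overlap, the 5 of highest level in each direction whose change is 5 log2 or more in size, all cell type markers, the 3 DEGs of each list with the largest change in each direction, the 5 largest interactions in each direction among DEGs of opposite signs and among DEGs found at pH 6.0 alone, and Nfe2l2, Keap1 and Tkt. Members and lists were chosen with earlier results of these data known. Alternatives were DESeq2's size factors, library totals, no filter, a filter of 1 CPM in 4 libraries, each tool alone, an FDR below 0.05, a test against a log2 fold change of 1 (glmTreat), all 16 libraries in one fit, each library left out, and subsets by the second number in the column names, whose meaning is not given. Floors and counting intervals cover counting error only.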

Additional observations from a re-analysis of the deposited data

Results flagged for a closer look

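In 210 groups of 4 libraries, from 198 named genes, 13 single libraries lay far from the other 3, and chance alone picks out about 1 in 20 groups; 5 of the 13 were N8, 4 were N11, 2 were N15 and 2 were N3. Above the other 3 libraries of the group lay Prrx2 in N15 (130 FPM, others 108 to 111), Thnsl2 in N8 (33.4 FPM, others 21.4 to 22.9), Mfap5 in N8 (465 FPM, others 179 to 194), Synpo in N11 (35.4 FPM, others 23.6 to 25.5), Fgf18 in N8 (11.2 FPM, others up to 7.21), Gls2 in N11 (36.3 FPM, others 29.4 to 30.6), Idi1 in N11 (16.9 FPM, others 13.9 to 14.3), Tfeb in N3 (55.9 FPM, others 46.1 to 46.8) and Keap1 in N15 (117 FPM, others 99.2 to 101). Below the other 3 lay Il1rl1 in N11 (12 FPM, others 18.5 to 18.8), Pdia4 in N3 (316 FPM, others 356 to 365), Plk2 in N8 (123 FPM, others 258 to 268) and Scgb1c1 in N8 (9.59 FPM, others 15.46 to 15.96).

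A difference between the lines at pH 6.0 that was not the one at pH 7.4, by a test of the difference itself, was found in 5428 genes. Among DEGs at both pH values with opposite signs it was largest towards NRK-49F in Ampd3 (-6.82 on the log2 scale), Mroh2a (-5.37), Adgrg1 (-4.98), Fam227a (-4.44) and Lgi4 (-4.19), and largest towards NRK-52E in Cdkn1a (5.17), Ptprv (5.08), Nes (5.05), Plk2 (4.94) and Fhdc1 (4.43).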

How the results depend on the processing

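With 4 libraries a line, and no word on whether they are separate cultures, the p-values hold for these libraries and each line is a single line. The numbers N1 to N16 are each used once, and the lines share only 1 of the second numbers, so a fit of the pH 6.0 comparison paired by it would rest on N3, N4, N15 and N16, which alone gave 7374 DEGs (3467 higher in NRK-52E, 3907 in NRK-49F). The interaction can carry the second number as a replicate block, a fit chosen after the data were seen: it called 5284 genes, 2737 towards NRK-52E and 2547 towards NRK-49F, 5147 of them among the 5428, with 0 of opposite sign. Over genes, the difference between the second numbers of a line at pH 6.0 correlated with that at pH 7.4 at -0.146 for NRK-52E and 0.0622 for NRK-49F. Libraries of the higher second number alone gave 5332 DEGs (2553 higher in NRK-52E, 2779 in NRK-49F), and a test against a log2 fold change of 1 (glmTreat) gave 3704 (1658 and 2046) with a median absolute log2 fold change of 2.90, against 1.40. With 1 library left out the DEGs numbered 7487 (without N15) to 9263 (without N8), those higher in NRK-52E 3597 (N15) to 4443 (N8), those higher in NRK-49F 3867 (N7) to 4820 (N8), and their median ran from 1.36 (N8) to 1.56 (N12). Interactions then numbered 4708 (N2) to 5973 (N8), 2016 (N3) to 2987 (N8) towards NRK-52E and 2271 (N2) to 2986 (N8) towards NRK-49F, and library totals gave 1829 and 3596. List medians changed sign as follows: pericyte genes from -1.22 to 3.26 without the filter, keratins 0.08 under library totals, 0.003 without the filter and -0.26 (N12) to 0.24 (N11) with 1 library left out, cell cycle genes from -0.02 to 0.12 under library totals, to 0.02 under DESeq2's size factors and to -0.14 (N11) to 0.16 (N16), and acid-base genes -0.0405 (N11) to 0.26 (N16). Medians that kept their sign but moved by over 1.5 times include, without the filter, contractile genes (2.18), basement membrane genes (0.80), secreted factors (-0.15) and distal nephron genes (-0.40), and, under library totals, HOX genes (0.34), receptors (0.31), glutamine genes (0.35), lysosome genes (-0.28) and reference genes (0.22). At these depths 0 counts over a line bounds a level and does not show that a gene is off. No named gene reversed. The result was weaker for 17 named genes with libraries of the lower second number, 22 with the higher and 15 with the shared. Against a log2 fold change of 1 it was weaker for 30. The cause of these changes was not tested.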

Other observations

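Gstp1, a glutathione transferase chosen here after its values were seen, measured 625, 553, 644 and 1252 FPM in the NRK-52E libraries and 16645, 19484, 22485 and 22135 FPM in the NRK-49F libraries, a log2 fold change of -4.73 ± 0.29 (FDR 2.6e-08). Every NRK-49F library lay far above every NRK-52E library.

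By chromosome, the median log2 fold change was furthest below 0 on chromosome 17, at -0.36 over 390 tested genes (78 DEGs higher in NRK-52E, 162 higher in NRK-49F), where it was -0.39 at pH 7.4, and highest among autosomes on chromosome 16, at 0.23 over 389 genes (149 and 103), where it was 0.40 at pH 7.4. On chromosome Y, 12 genes were tested, 6 of them DEGs, all higher in NRK-52E. Uba1y, chosen like the other genes of this paragraph after its values were seen, measured 420.1, 414, 420.0 and 384 FPM in the NRK-52E libraries and 1.11, 1.13, 1.30 and 0.970 FPM in the NRK-49F libraries. LOC103694556 had 370 to 509 FPM in NRK-52E and 0.930 to 1.59 FPM in NRK-49F, and LOC103694557 had 329 to 471 FPM and 0.531 to 1.79 FPM. Ddx3 (163 to 204 FPM in NRK-52E, 121 to 142 FPM in NRK-49F), Eif2s3y (82.4 to 135 FPM, 104 to 122 FPM) and Kdm5d (49.6 to 65.5 FPM, 37.0 to 52.9 FPM) were measured in both lines.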
